A study of Mus musculus with 24 samples.

Results

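Hexdc was the gene with the most reads in both cultures of in vitro-grown mouse oocytes for which RNA-seq values were read here, and it is 1 of 16572 gene names in the table. It was chosen by its row name, and its place at rank 1 was known when it was chosen, so its level and rank are given as a description with no test. The class IV oocytes came from ovaries of 7-day-old mice, labelled C57BL/6 Barb and described in the methods as a cross of C57 Black6 and SV129 backgrounds, and were grown without follicles, initially beside theca-like cells of the dissociated ovary. The IV 5% O2 group was grown at 5% oxygen for 9 days and the IV 20% O2 group at 20% oxygen for 14 days, and the labels give both a diameter of 60 to 70 µm, although the methods give a lower size range for IV 20% O2. The methods also give more frequent changes of medium at 5% oxygen. Oxygen, days in culture and changes of medium therefore cannot be told apart. Total RNA depleted of ribosomal RNA was sequenced as strand-specific libraries, 2 for each condition. Each condition has only 1 column, called pooled here although how its libraries were combined is not stated. No value therefore has a replicate error, and no difference could be tested.

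Hexdc encodes hexosaminidase D, an enzyme of glycosyl hydrolase family 20. Enzymes of this family cut a terminal N-acetylhexosamine from a sugar chain. Its relative Hexa encodes a subunit of a lysosomal hexosaminidase, whereas hexosaminidase D is found in the nucleus and cytoplasm and prefers galactosaminides. As background on the tissue, mouse oocytes are known for abundant RNAs that begin in long terminal repeats of retrotransposons of the MT family, and some of these RNAs run on into the exons of a nearby gene.

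The Hexdc gene (ENSMUSG00000039307.16) lies on the plus strand of GRCm38 at chr11:121204433-121222655. The annotation gives it 8 transcripts, 5 of them protein coding, whose exons merge into 12 blocks of 4723 bases in all. The first merged exon is the longest, at 2342 bases, and holds no coding sequence. Most of its length comes from Hexdc-205, a non-coding transcript with a first exon of 1991 bases.

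That first merged exon runs through a repeat. The longest soft-masked (lower-case, repeated) stretch of the gene holds a 1883-base sequence at chr11:121205562-121207444 that begins and ends with the same 395 bases in the same direction, the arrangement of a retrotransposon with long terminal repeats. Both ends matched at 100.0% of their bases. The annotation used here does not name the family of this repeat. Exons of Hexdc-204 and Hexdc-205 cover 1213 bases of it in the sense direction, which is 25.7% of the exonic bases of the gene, and none of the 1853 coding bases lies in it. Elsewhere in the 22 chromosome sequences, 1407 stretches of at least 1800 aligned bases matched it at 86.6% to 99.7% identity, with a median of 95.0%. The terminal sequence alone, complete to within 5 bases at each side, was found at 14443 other places.

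The gene with the second most reads in both columns, the lincRNA Gm16211 (ENSMUSG00000086130.1, minus strand, chr4:147668518-147670854), carries the same repeat in the same direction. Its exons hold the repeat from its base 1 to its base 993 at 94.0% identity, and that match takes up 61.5% of its 1620 exonic bases. The first 200 bases of the repeat in each gene are shown because they are what the exons of the leading pair of genes share. Capitals mark the 8 positions at which they differ, and the other 192 bases are identical. The Hexdc stretch is chr11:121205562-121205761 on the plus strand and the Gm16211 stretch is chr4:147669318-147669517 on the minus strand, both of GRCm38.
Hexdc: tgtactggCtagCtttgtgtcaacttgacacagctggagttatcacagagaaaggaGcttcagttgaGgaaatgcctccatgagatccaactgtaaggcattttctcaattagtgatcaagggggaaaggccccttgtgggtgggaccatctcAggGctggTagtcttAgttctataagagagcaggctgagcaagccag
Gm16211: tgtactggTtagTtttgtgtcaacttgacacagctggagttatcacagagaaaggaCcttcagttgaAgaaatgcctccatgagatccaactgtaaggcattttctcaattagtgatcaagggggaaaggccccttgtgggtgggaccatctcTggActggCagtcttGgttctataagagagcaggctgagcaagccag

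The repeat ends 194 bases before the second merged exon, in which the coding sequence begins. Besides the window at the start of the gene, a second Hexdc promoter window, set from RefSeq annotation (GRCm38.p6) and not measured here, lies there. Its part before that exon, chr11:121207393-121207638 on the plus strand, is shown because it joins the end of the repeat to the coding exons. The 52 bases in capitals belong to the terminal repeat.
Hexdc second window: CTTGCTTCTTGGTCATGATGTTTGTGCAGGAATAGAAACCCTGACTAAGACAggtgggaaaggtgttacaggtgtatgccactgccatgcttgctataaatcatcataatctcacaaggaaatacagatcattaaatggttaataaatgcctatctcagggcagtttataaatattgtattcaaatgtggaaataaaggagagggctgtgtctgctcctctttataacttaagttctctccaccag

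How far the exons of Hexdc can be told from the rest of the genome was read from exact windows. Inside the repeat, all 1164 exonic windows of 50 bases occurred at more than 1 place, the commonest at 4575 places. For windows of 100 bases these numbers were 1114 of 1114 and 1257 places. The counts include both identical ends of the repeat in Hexdc itself, so every window within the first end has at least 2 places by structure. In exon 5, all 127 windows of 50 bases occurred 2 times, as did all 116 in exon 6. The 165 bases of exon 6 equal the start of exon 5, which begins 411 bases upstream, and the duplicated stretch runs on past the end of exon 6. No annotated transcript holds both of these exons. Every 50-base window of exons 2 to 4 and 7 to 12 was found 1 time only. The table gives 1 value for the whole gene, so the share of Hexdc reads that lay in the repeat could not be measured, and whether reads with several genomic positions were kept is not given in the sources used here.

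Hexdc stood at 14900.2 RPM (reads divided by the total of that column and multiplied by a fixed factor, with no correction for length) in IV 5% O2 and at 11962 RPM in IV 20% O2. These values correspond to 1969589 of 109629353 reads on genes in IV 5% O2 and 488953 of 29754908 in IV 20% O2. Hexdc thus took 1.80% of the gene reads in IV 5% O2 (exact Clopper-Pearson 95% interval 1.79% to 1.80%). It took 1.64% in IV 20% O2 (1.64% to 1.65%). Such intervals cover counting error only, and reads without molecular identifiers are not independent molecules. Of all reads on genes of chromosome 11, Hexdc had 19.2% in IV 5% O2 and 18.1% in IV 20% O2. The 10 genes with the most reads had 4.98% of the summed RPM in IV 5% O2 oocytes and 6.33% in IV 20% O2.

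Gm16211 had 5744.8 RPM in IV 5% O2 oocytes and 10206.2 RPM in IV 20% O2. In reads, Hexdc lay 2.59-fold above it in IV 5% O2 and 1.17-fold above it in IV 20% O2. The order turned when the exonic length was taken into account. Hexdc had 3154.8 RPM per kb in IV 5% O2 and 2532.7 RPM per kb in IV 20% O2, against 3546.2 and 6300.2 RPM per kb for Gm16211. Per kb, Hexdc was therefore at rank 3 in IV 5% O2, after Gm16211 and Gm10800 (3195.0 RPM per kb), and at rank 2 in IV 20% O2, where Gm10800 had only 4.67 RPM per kb. In IV 20% O2 the ribozyme gene Rpph1, the RNA part of RNase P, followed Hexdc closely at 2435.9 RPM per kb.

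**Figure D1:**
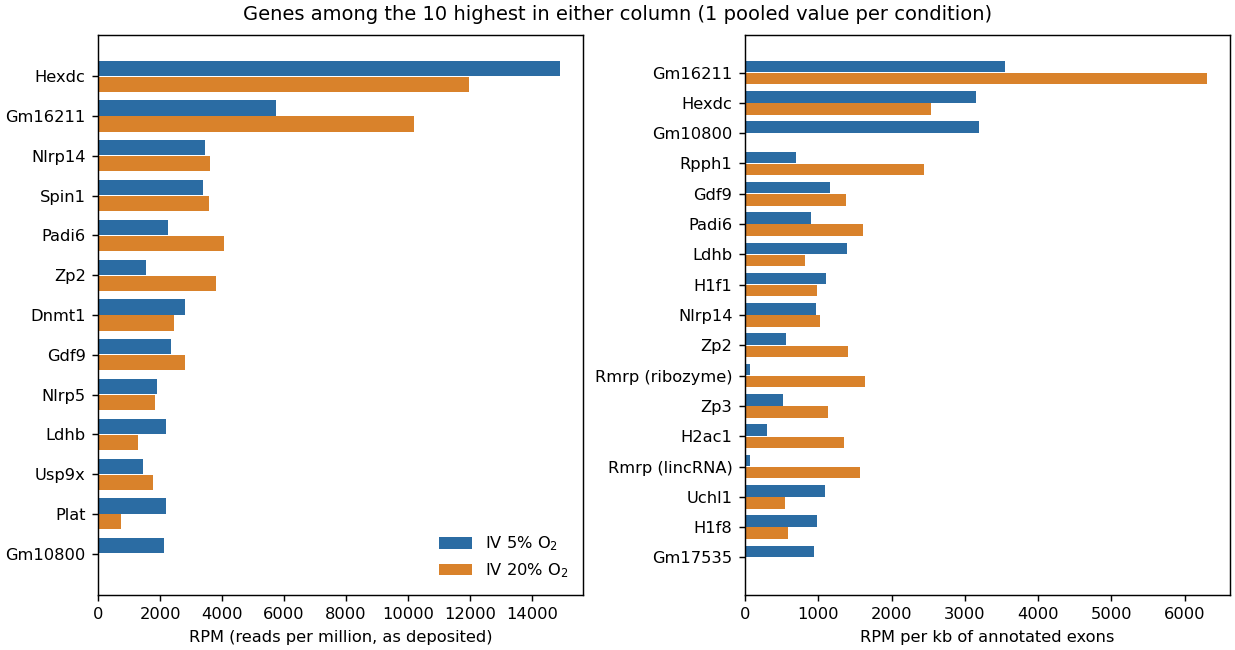
Genes among the 10 highest of either column, as RPM (left, linear axis from 0) and as RPM per kb of annotated exons (right, linear axis from 0), with blue bars for IV 5% O2 and orange bars for IV 20% O2. Each bar is 1 pooled value without a replicate error, and Rmrp has 2 overlapping rows. Hexdc has the longest bars at the left (14900.2 and 11962 RPM), while Gm16211 has the longest at the right (3546.2 and 6300.2 RPM per kb).

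The other genes at the top of the RPM order were mostly known oocyte genes, and all had fewer reads per kb of exon than Hexdc except Gm10800 in IV 5% O2. Nlrp14, a member of the oocyte NLRP family, had 972.5 RPM per kb in IV 5% O2 and 1019.9 RPM per kb in IV 20% O2. Padi6, needed for the cytoplasmic lattices of the oocyte, had 895.0 and 1608.3 RPM per kb. Gdf9, a growth factor secreted by the oocyte, had 1155.1 and 1381.1 RPM per kb. Zp2, which encodes a zona pellucida protein, had 564.1 and 1397.4 RPM per kb. Hexdc exceeded Gdf9 by 2.73-fold in IV 5% O2 and by 1.83-fold in IV 20% O2 on this scale. Besides Gm10800, the remaining genes of either RPM list were Spin1, the maintenance methyltransferase Dnmt1, Nlrp5, Ldhb, Usp9x and Plat, at 95.4 to 1393.7 RPM per kb in IV 5% O2 and 117.5 to 820.4 RPM per kb in IV 20% O2.

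Between the cultures, Hexdc differed by 0.32 on the log2(RPM + 1) scale, IV 5% O2 minus IV 20% O2. This is a ratio of 1.25 (95% interval of the log2 ratio 0.31 to 0.32, counting error only). The median of the 14704 genes above the limit of 1 RPM on average was itself 0.26, and 52.7% of them had a smaller difference than Hexdc. Relative to that median, Hexdc lay 0.059 higher. With median-ratio scaling of the columns its difference was -0.0028. Hexdc was thus high in both columns, and its difference lay near the middle of all genes. Gm16211 went the other way, with -0.83 on the same scale.

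As a background, 18.7% of the 14704 genes were at least 2-fold higher in IV 5% O2 and 9.22% were at least 2-fold lower, so that 27.9% were past 2-fold in either direction. Of the genes past 2-fold, 67.0% were higher in IV 5% O2 as deposited, but 45.6% after median-ratio scaling and 48.6% after quantile normalization. By depth, a single read was worth 0.00757 RPM in IV 5% O2 oocytes and 0.0245 RPM in IV 20% O2, where the columns rest on 132185259 and 40875359 reads.

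The identity of the samples was read from marker genes. Of 31 listed oocyte genes 30 were in the table, with a summed 33639.5 RPM in IV 5% O2 oocytes and 35857.0 RPM in IV 20% O2. Granulosa markers (5 of 12 in the table) summed to 38.7 and 29.0 RPM, with Inha at 0 in IV 20% O2 and Fshr at 0 in IV 5% O2. Theca and stroma markers (11 of 18) summed to 46.1 and 7.17 RPM, ranging from 0.431 to 16.4 RPM in IV 5% O2 and from 0 to 2.30 RPM in IV 20% O2, where Dcn, Vim and Col1a2 were at 0 and Nr2f2 (0.787 and 1.69 RPM) was higher. Macrophage, endothelial and erythroid markers (7 of 14) summed to 80.2 and 58.8 RPM, with Lyz2 and Kdr at 0 in IV 20% O2 and with Csf1r (9.28 and 15.0 RPM) and Alas2 (1.32 and 1.57 RPM) higher there. In pooled oocytes with traces of other cells, fewer cells of a type and less RNA per cell cannot be told apart. The part of these cells in the Hexdc values was not tested.

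Rows other than Hexdc and Gm16211 that carry the repeat were found by matching it to the exons of every row. Sense matches of at least 500 exonic bases at 85% identity or more occurred in 31 rows, Hexdc and Gm16211 included, a limit chosen after the values had been seen. The other 29 rows ranged from 0.0378 to 18.2 RPM in IV 5% O2, with a median of 1.63 RPM. They ranged from 0.343 to 71.5 RPM in IV 20% O2, with a median of 23.7 RPM. Per kb of exon, their median was 0.565 RPM per kb in IV 5% O2, below the 3.61 RPM per kb of all rows, and 6.20 RPM per kb in IV 20% O2, above the 3.16 RPM per kb of all rows. Hexdc was 443.1-fold above the highest of them per kb in IV 5% O2 and 57.7-fold in IV 20% O2. With a limit of 200 bases instead, these values were 24.2-fold and 25.6-fold, over 83 other rows that reached 1002 RPM in IV 5% O2 oocytes and 1202 RPM in IV 20% O2.

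These other rows also differed between the cultures. Of all 29, 25 had fewer RPM in IV 5% O2 than in IV 20% O2, where 36.9% of the 16591 rows of the table did. Of the 29 rows, 12 had at least 2 RPM in both columns, so most were low in at least 1 of them. With the limit of 200 bases, 43 of 83 rows had fewer RPM in IV 5% O2. In 12 rows at least 80% of the exonic bases matched the repeat, a limit also chosen after the values had been seen. All 12 were lower in IV 5% O2, at 0.212 to 3.90 RPM against 16.8 to 71.5 RPM. These rows are copies of the same repeat, so they are not independent of each other. For example, Gm37110 had 0.741 RPM in IV 5% O2 oocytes and 71.5 RPM in IV 20% O2, and Gm43042 had 0.461 and 48.5 RPM. The annotation class TEC (unverified transcripts), which holds many of these rows, had 321 rows without any match to the repeat, of which 34.3% had fewer RPM in IV 5% O2. Of the other 17 rows, with a smaller share of repeat, 13 were lower in IV 5% O2 and 4 were higher. The coding gene Ccdc82, with 19.0% of its exons in the repeat, had 14.1 and 8.24 RPM, while the olfactory receptor gene Olfr624, with 32.8%, had 2.05 and 14.1 RPM. The part of reads with several genomic positions in these values was not tested.

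**Figure D2:**
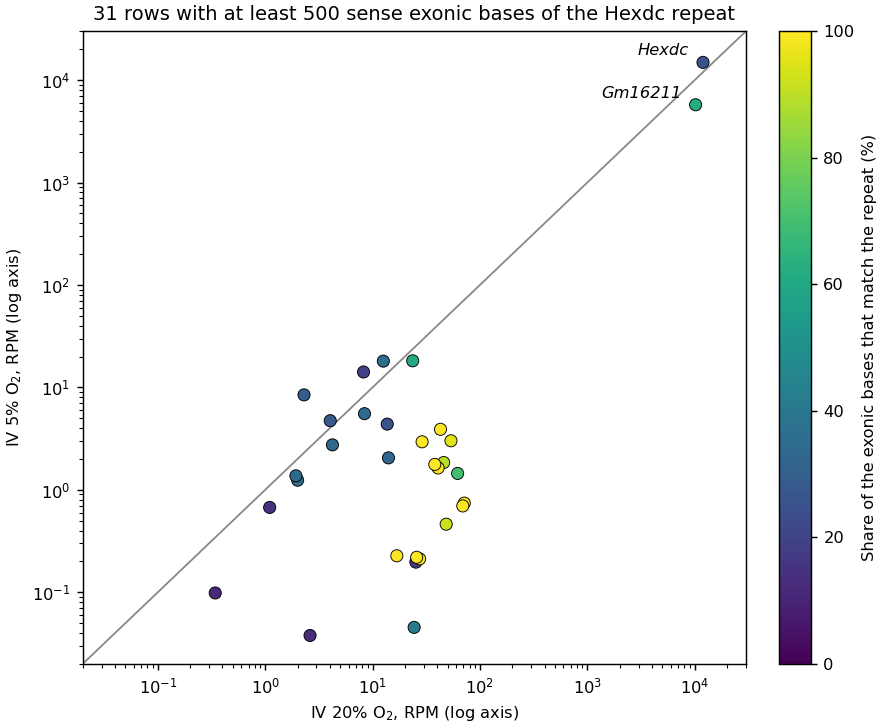
RPM in IV 20% O2 (x, log axis) against RPM in IV 5% O2 (y, log axis) for the 31 rows with at least 500 sense exonic bases of the Hexdc repeat, 1 point per row, coloured by the share of exonic bases that match the repeat (%). The line marks equal values. Hexdc and Gm16211 lie far above the other 29 rows, and the 12 rows made of at least 80% repeat lie below the line.

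Hexdc was known to have the most reads when it was chosen, so every row near it had to lie below it in RPM. The values of these rows are given as a description. Within 250 kb of the gene the table holds 16 rows, which ranged from 0.282 to 198.7 RPM per kb in IV 5% O2 and from 0.0578 to 89.4 RPM per kb in IV 20% O2. The highest was Tex19.1, a germline gene that restrains retrotransposons, 56113 bases before Hexdc. Hexdc lay 15.9-fold above it per kb in IV 5% O2 and 28.3-fold in IV 20% O2. The median of the 16 rows was 5.53 RPM per kb in IV 5% O2 and 6.56 RPM per kb in IV 20% O2, against 3.61 and 3.16 RPM per kb for all rows.

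Both genes that overlap Hexdc lie on the opposite strand. Ogfod3, which encodes a predicted oxygenase, starts within the first exon of Hexdc and shares 279 bases with it, 223 of them exonic in both genes. It had 2.05 RPM (271 reads) in IV 5% O2 and 8.49 RPM (347 reads) in IV 20% O2. This is a 4.14-fold lower value in IV 5% O2 (log2 ratio -2.05, 95% interval -2.28 to -1.82). Cybc1, a chaperone of the phagocyte NADPH oxidase, ends against the last exon of Hexdc and shares 68 bases with it, all exonic. It had 4.05 RPM in IV 5% O2 oocytes and 4.84 RPM in IV 20% O2. Per kb, Hexdc lay 2013-fold above Ogfod3 and 3278-fold above Cybc1 in IV 5% O2, and 390.2-fold and 2203-fold above them in IV 20% O2. The counting setting for strand is not given in the sources used here, so reads in the shared bases cannot be assigned to either gene with certainty.

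The 4 nearest rows before Hexdc were Uts2r, Tex19.1, Tex19.2 and Sectm1a, and the 4 nearest after it were Narf, Foxk2, Wdr45b and Fn3krp. Tex19.1 had 371.9 RPM in IV 5% O2 oocytes and 167.3 RPM in IV 20% O2, and its paralog Tex19.2 had 31.9 and 15.0 RPM. Reads from such paralogs can be split uncertainly between them. Uts2r, a receptor gene, was low in both, with 2.53 and 1.61 RPM. Sectm1a had 1.24 and 0.0979 RPM, and its mean was under the limit for the comparison. On the other side, Narf had 51.4 and 31.8 RPM, the transcription factor gene Foxk2 had 96.2 and 111.3 RPM, and the autophagy gene Wdr45b had 26.5 and 41.9 RPM. Fn3krp, which encodes a kinase acting on glycated proteins, had 0.711 RPM (94 reads) and 6.63 RPM (271 reads). Of the 15 neighbours above that limit of 1 RPM, 4 were at least 2-fold higher in IV 5% O2 (Slc16a3 1.66, Tex19.1 1.15, Tex19.2 1.04 and Cd7 1.02, as log2 differences) and 2 lower (Ogfod3 -1.64 and Fn3krp -2.16), where 18.7% of all genes were higher and 9.22% lower. Their median difference was 0.14, below the 0.26 of all genes, and with median-ratio scaling 1 neighbour was at least 2-fold higher. Tex19.1, Tex19.2 and Cd7 fell under 2-fold with that scaling and with quantile normalization.

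**Figure D3:**
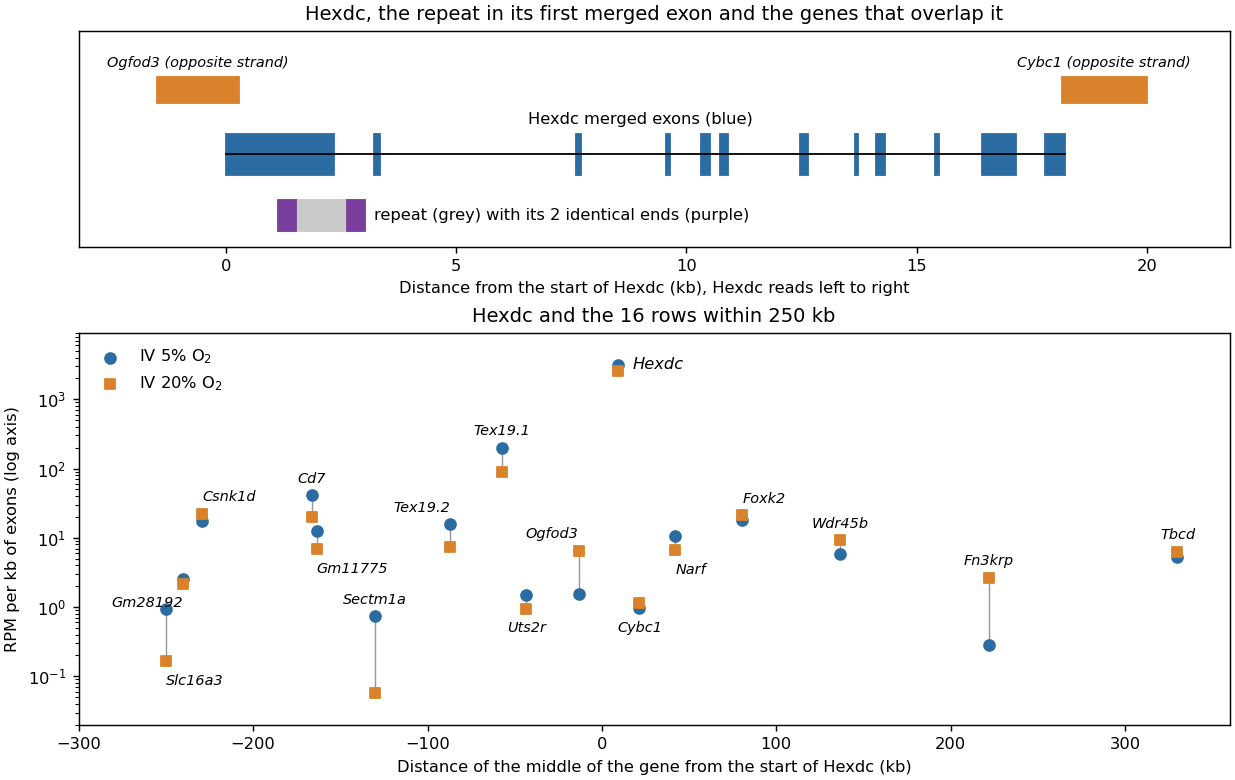
Top, the 12 merged exons of Hexdc (blue) by distance from its start (kb), with the repeat (grey, its 2 ends purple) and the parts of the overlapping genes that fall in view (orange). Bottom, RPM per kb of exons (log axis) for Hexdc and the 16 rows within 250 kb by distance from its start (kb), circles for IV 5% O2 and squares for IV 20% O2. Hexdc lies above all 16, the nearest in level being Tex19.1 at 198.7 and 89.4 RPM per kb.

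The other genes of the Hexdc family likewise had to lie below it in RPM, and their values are a description too. Hexa had 1.27 RPM per kb in IV 5% O2 and 2.12 RPM per kb in IV 20% O2. Gm2a, which encodes the activator protein that presents GM2 ganglioside to hexosaminidase A, had 0.550 and 0.344 RPM per kb. Per kb, Hexdc therefore lay 2485-fold above Hexa in IV 5% O2 and 1194-fold in IV 20% O2. Neither gene was 2-fold apart between the cultures, with differences of -0.57 for Hexa and 0.43 for Gm2a beside 0.32 for Hexdc.

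The pair of enzymes that place and remove O-GlcNAc on nuclear and cytoplasmic proteins was higher than Hexa and Gm2a. Ogt, the transferase, had 34.5 RPM per kb in IV 5% O2 and 68.1 RPM per kb in IV 20% O2. Oga, the hydrolase, had 7.70 and 6.36 RPM per kb. On the log2(RPM + 1) scale Ogt differed by -0.98 and Oga by 0.27, so as deposited neither reached 2-fold, although Ogt lay close to it. Median-ratio scaling lowered the difference of Hexdc from 0.32 to -0.0028, and a like shift would take Ogt past 2-fold lower.

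Of 43 listed genes for other glycan-degrading enzymes and their helpers, 36 were in the table and 35 averaged at least 1 RPM. At least 2-fold higher in IV 5% O2 were 3 of them, namely Manba (lysosomal beta-mannosidase) at 2.79, Arsa (arylsulfatase A) at 1.32 and Engase (a cytosolic glucosaminidase of N-glycans) at 1.18. Manba stayed past 2-fold with median-ratio scaling, quantile normalization and a pseudocount of 5, whereas Engase (0.98, 0.89 and 0.50) stayed under it in all 3 and Arsa in the last 2 (0.89 and 0.45). At least 2-fold lower were 5, among them Naglu (-1.58) and Ids (-1.43), which act on glycosaminoglycans, and Hyal3 (-1.05), a member of the hyaluronidase family. With a pseudocount of 5 Naglu (-0.77) and Hyal3 (-0.39) were under 2-fold and Ids was not. Over all genes 18.7% were higher and 9.22% lower. The median of the 35 was -0.04, against 0.26 for all genes. By mean RPM the highest were Smpd1, Ngly1, Psap and Gaa, with 52.7 to 94.3 RPM in IV 5% O2 oocytes and 67.2 to 101.2 RPM in IV 20% O2. Nagpa, which uncovers the mannose 6-phosphate tag of lysosomal enzymes, had 11.4 and 6.17 RPM, a difference of 0.79. All 41 genes of the 3 lists without Hexdc summed to 1005.5 RPM in IV 5% O2 oocytes and 1363.2 RPM in IV 20% O2.

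**Figure D4:**
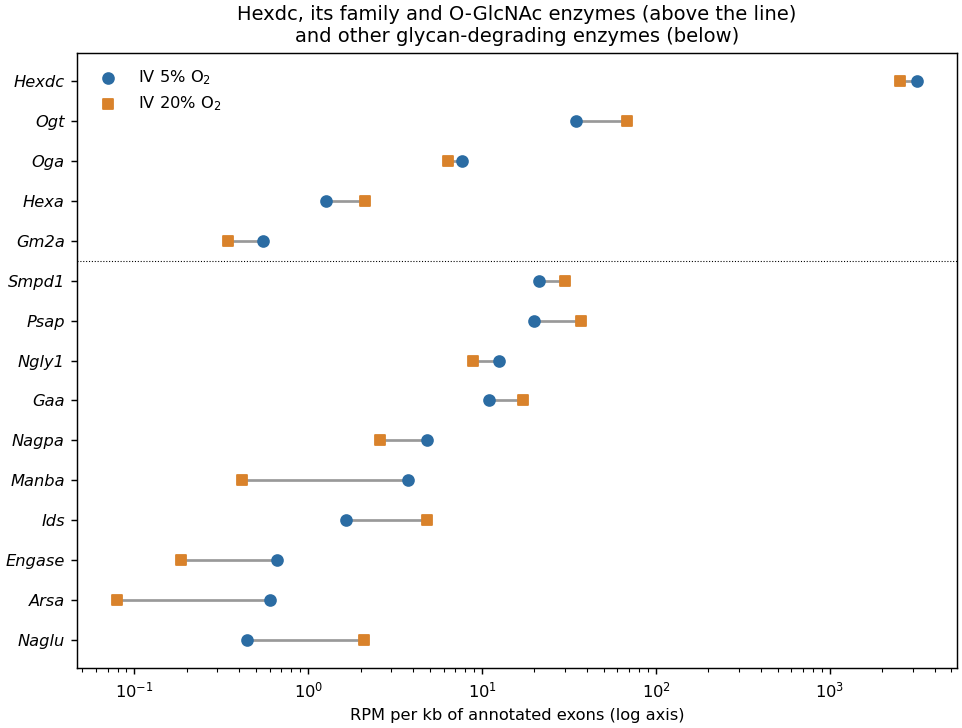
RPM per kb of annotated exons (log axis) for Hexdc, its family and the O-GlcNAc enzymes (above the dotted line) and for 10 other glycan-degrading genes (below it), circles for IV 5% O2 and squares for IV 20% O2, 1 pooled value each. Hexdc lies at 3154.8 and 2532.7 RPM per kb, and the next highest, Ogt, at 34.5 and 68.1.

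The genes most like Hexdc were found by distance over the 2 columns in log2(RPM + 1). The nearest was Gm16211 at a distance of 1.39, followed by Nlrp14 (2.73), Spin1 (2.76), Padi6 (3.13), Dnmt1 (3.32) and Gdf9 (3.39). This order follows the RPM level, since Hexdc stands at its upper end. Among the 2004 rows that averaged 100 RPM or more, the differences between the cultures nearest to that of Hexdc were those of Mtmr2, Uba1, Ttll11, Dnttip2, Ipmk and L3mbtl2, which lay between 0.31 and 0.32. With only 2 columns, likeness rests on 2 values for each gene.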

How the data were processed

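RNA-seq of class IV oocytes grown at 5% or 20% O2 was analysed. Per the methods and the submitters' processing notes, the authors aligned reads to mm10 with TopHat2 (2.0.9) and quantitated them over merged exons in SeqMonk. The methods describe an oocyte-specific transcript annotation and a correction for feature length, neither of which is seen in the values or coordinates, so RPM per kb and repeat shares rest on GENCODE exons that may differ from those the authors counted over. The deposited values are log2 values, 1 column per condition, and how the 2 libraries were combined is not stated. They are named as RPKM, but the linear values are whole multiples of 1 step within 0.05 reads for 99.93% of genes at 5% O2 and 99.98% at 20% O2, so they were read as RPM. Genes without reads were set to 0. A count test on the recovered reads needs single libraries and was not run. The table's other value column (1 column) matched no mapped sample and was not used.

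Exons came from GENCODE M21 (GRCm38), matched for 16414 rows by coordinates and 158 by name. Of 18 names with several rows, the row with the highest mean was used. Differences are log2(RPM + 1), for a mean of at least 1 RPM, called at 2-fold. The planned comparisons had no replicates, so intervals are exact Clopper-Pearson (95%, scipy 1.17.1), and a count of 0 allows up to 3 reads (0.0227 RPM in IV 5% O2, 0.0734 RPM in IV 20% O2). Repeat matches used BLAST 2.17.0 megablast at 85% identity or more. The steps were tested on simulated data. Named genes were Hexdc, the 10 highest rows of each column, overlapping rows and the 4 nearest on each side, the members of the fixed lists (of the glycan-degrading list, the 4 highest and the 4 with the largest difference in each direction), the noncoding list and the 6 nearest by each measure of likeness. The rows per kb, the rows with the repeat and the markers named were added after their values were seen. The members and lists were chosen with earlier results of these data known. The Bismark-processed methylation libraries were not analysed here. A few members of the fixed lists count in the totals but are not reported here by name.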

Additional observations from a re-analysis of the deposited data

How the results depend on the processing

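No paired analysis was possible because each condition has a single column for its 2 labelled libraries. Leaving out a library could not be done for the same reason. Without its own reads in the depth, the Hexdc level was 15126 RPM in IV 5% O2 oocytes and 12107 RPM in IV 20% O2, and with the reads on genes as depth it was 17966 and 16433 RPM. Its rank of 1 over all rows fixes a rank of 1 among protein-coding rows and among rows of chromosome 11, so those settings test nothing. Per kb, its rank became 3 in IV 5% O2 and 2 in IV 20% O2. The Hexdc log2 difference stayed within its interval with a pseudocount of 0.1 or 5 and without its reads in the depth, became -0.0028 with median-ratio scaling, and was 0 under quantile normalization, which gives equal ranks equal values. Of all genes, 2753 were at least 2-fold higher and 1356 lower as deposited, 1202 and 706 with a pseudocount of 5, 1764 and 1866 after quantile normalization, 1700 and 2031 after median-ratio scaling, and 1691 were higher at a mean of at least 5 RPM. Near Hexdc, 2 were higher and 1 lower within 100 kb, and 1 was higher with median-ratio scaling. Of the 40 tested glycosidase genes, 3 higher and 5 lower as deposited, 8 were lower with median-ratio scaling, 1 higher and 8 lower with quantile normalization, and 1 higher and 2 lower with a pseudocount of 5. The share of all genes that were lower moved the same way, from 9.22% to 13.9%, 12.7% and 4.8%. Of the rows with the repeat, 1 of 27 tested was at least 2-fold higher and 18 lower, but many of the 18 passed the limit of 1 RPM only through IV 20% O2, and over all genes 18.7% were higher and 9.22% lower. With matches of at least 200 bases 8 of 77 were higher and 25 lower, and with at least 80% of the exons 0 of 12 and 12. That last set of settings was chosen after seeing the data. For the other shifts the cause was not tested. Among genes named 1 by 1, 20 fell under 2-fold with a pseudocount of 5 (Ogfod3 at -0.94, Arsa and Engase among them), 6 with median-ratio scaling and 8 after quantile normalization, while 8 and 7 newly passed it under these, and no difference past 2-fold changed sign. Depth limits the low genes most: in IV 20% O2 a value of 0.0979 RPM rests on 4 reads.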

Other observations

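Antisense copies of the Hexdc repeat were also found in exons. With matches of at least 500 exonic bases, 18 rows carried it in the antisense direction, with 0.00757 to 96.5 RPM in IV 5% O2 oocytes and 0.0245 to 237.3 RPM in IV 20% O2. Of the 18, 11 had fewer RPM in IV 5% O2 than in IV 20% O2, where 36.9% of all rows did. The antisense row Gm44792, whose exons are repeat throughout, had 7.92 RPM in IV 5% O2 oocytes and 81.0 RPM in IV 20% O2, while the antisense row Gm38383 had 27.4 and 28.6 RPM.

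Among abundant noncoding RNAs, 9 of 20 listed were in the table, of which 3 were at least 2-fold higher and 4 lower, against 18.7% and 9.22% of all genes. At least 2-fold higher in IV 5% O2 were Rprl3 (9.66 against 1.49 RPM), Neat1 (4.99 against 0.636 RPM) and Meg3 (2.91 against 0.685 RPM). In IV 20% O2, Neat1 rests on 26 reads and Meg3 on 28. At least 2-fold lower were Rmrp (18.6 against 442.3 RPM), Rpph1 (222.0 against 777.0 RPM), Terc (3.13 against 11.9 RPM) and Gas5 (3.46 against 8.81 RPM). With a pseudocount of 5, Neat1, Meg3 and Gas5 were under 2-fold. As deposited, Malat1 (57.0 and 106.9 RPM) was not 2-fold apart. Snhg1 (5.65 and 11.4 RPM) lay at the limit, with -0.89 on the log2(RPM + 1) scale and -1.01 as a plain log2 ratio. Gm10800, which exceeded Hexdc per kb in IV 5% O2 alone, had 2108.7 RPM there and 3.08 RPM in IV 20% O2, and Gm17535 had 627.8 and 3.16 RPM. Of 13 mitochondrially encoded genes tested, 7 were at least 2-fold higher in IV 5% O2 and 1 lower, against 18.7% and 9.22% of all genes.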
